A study of Mus musculus with 32 samples.

Results

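The 33 genes described here encode the enzymes and main regulators of cholesterol and fatty acid synthesis, and they were followed across the cell types of the mouse median eminence (ME), the part of the hypothalamus from which neurohormones enter the portal blood. The members were taken from a list of gene symbols and not selected by their values, although earlier results of these data were known. All 33 had a row among the 27998 genes of the expression matrix. Of these, 17 encode enzymes of sterol synthesis (6 mevalonate steps and 11 steps from squalene to sterol), 4 encode regulators and 12 encode proteins of fatty acid synthesis, elongation and desaturation. The study compared C57B/L6 male mice aged 40 to 47 days that were fasted overnight for 16 h with mice refed normal chow for 1 h after the same fast. The ME of 5 mice was pooled in each condition, dissociated with papain, sorted for live single cells and split over 2 droplet-based single-cell RNA libraries per condition, so each condition is 1 pool without replicates. The 4 libraries lie in 1 matrix, and each barcode carries a suffix of 1, 2, 3 or 4, called the barcode number here. This number is not tied to a condition in the sources used here, so fasted and refed cells could not be compared, and all values below are for both conditions together.

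Cholesterol is built from acetyl-CoA through mevalonate and isoprenoids to squalene, which is closed to a sterol ring and then trimmed to cholesterol. The transcription factor SREBP2 (Srebf2) drives most of these genes and SREBP1 (Srebf1) those of fatty acid synthesis, while SCAP escorts both and INSIG1 holds them in the endoplasmic reticulum when sterol is plentiful. Plasma cholesterol hardly enters most of the brain, so its cells make their own. The vessels of the ME have no blood-brain barrier, and uptake of plasma cholesterol there was not measured. Oligodendrocytes are known for the large amounts of cholesterol and very long chain lipids that they put into myelin, and astrocytes for making cholesterol that neurons take up. Fatty acids leave the synthase as palmitate, and elongases (Elovl genes) lengthen them, while desaturases (Scd and Fads genes) add double bonds.

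Promoter windows are shown for 3 members whose levels differed between stages in the results below. Hmgcs1 was highest in mature oligodendrocytes, Elovl7 was high in differentiating and mature oligodendrocytes, and Mvd was lower in mature than in differentiating cells. The windows hold the 250 bases upstream of the RefSeq start in GRCm38.p6, read 5′ to 3′ on the strand of the gene. They lie at chr13:119690101-119690350 (plus strand, Hmgcs1), chr8:122443423-122443672 (minus strand, Mvd) and chr13:108214154-108214403 (plus strand, Elovl7). Capitals mark CCAAT, the box bound by NF-Y, in either direction, and CACCCCAC, part of the sterol regulatory element of the low density lipoprotein receptor gene.
Hmgcs1: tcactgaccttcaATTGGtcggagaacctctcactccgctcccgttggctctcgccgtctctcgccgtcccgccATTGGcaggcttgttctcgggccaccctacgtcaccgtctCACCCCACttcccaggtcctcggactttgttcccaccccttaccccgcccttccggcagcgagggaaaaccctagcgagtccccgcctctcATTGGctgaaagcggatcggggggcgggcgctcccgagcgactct
Mvd: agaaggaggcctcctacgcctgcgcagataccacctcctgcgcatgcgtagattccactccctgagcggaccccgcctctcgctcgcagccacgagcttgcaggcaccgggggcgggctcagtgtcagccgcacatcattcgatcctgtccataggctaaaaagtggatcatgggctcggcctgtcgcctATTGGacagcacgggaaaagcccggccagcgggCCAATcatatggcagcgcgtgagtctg
Elovl7: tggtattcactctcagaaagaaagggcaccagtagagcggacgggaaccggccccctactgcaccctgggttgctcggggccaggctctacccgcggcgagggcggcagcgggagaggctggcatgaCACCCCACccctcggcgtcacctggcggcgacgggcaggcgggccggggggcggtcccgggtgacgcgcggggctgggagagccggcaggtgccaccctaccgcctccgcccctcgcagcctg
The CACCCCAC match began 136 bases before the start in Hmgcs1 and 123 bases before it in Elovl7, and Mvd had none. The counts that follow are for windows of 300 bases, which add the 50 bases after the start, and both strands were searched.

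RefSeq promoter windows were matched for 27 of the 33 members by symbol, among them 14 of the 17 sterol enzymes, 9 of the 12 fatty acid genes and all 4 regulators. CCAAT was present in at least 1 window of all 14 matched sterol enzyme genes (Hmgcs1, Mvk, Pmvk, Mvd, Idi1, Lss, Cyp51, Tm7sf2, Msmo1, Nsdhl, Hsd17b7, Ebp, Sc5d and Dhcr7), of 5 matched fatty acid genes and of 3 regulators. Of all 27025 genes with a window, 41.1% held it, and of all windows 37.4%. GGGCGG, the box bound by Sp1, was present in 22 of the 27 members, beside 38.2% of genes and 35.7% of windows. CACGTG, an E-box, was present in 6 members (Hsd17b7, Sc5d, Dhcr7, Insig1, Scap and Elovl5), beside 8.09% of genes and 7.15% of windows. CACCCCAC occurred in the windows of Hmgcs1 and Elovl7 among the members, and in 3.3% of genes and 2.87% of windows. The full sterol regulatory element of that gene, which contains it, was in 0 members and in 0.0913% of windows. These matches describe the letters in the windows, and no binding was measured.

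The matrix held 5982 cells with 29288898 unique molecular identifiers (UMIs), each counting 1 captured transcript near its 3′ end. Cells held between 1533 and 25054 UMIs, with a median of 3837, and the 4 barcode numbers held between 1359 and 1493 cells for numbers 2 to 4 and 1642 cells for number 1. Cells were clustered without the members and named from marker genes. The stages of the oligodendrocyte lineage were 309 oligodendrocyte progenitor-like cells (OPC), 139 differentiating progenitor-like cells (diffOPC) and 658 mature oligodendrocyte-like cells (MOL). They were set beside 1420 astrocyte-like and 1041 tanycyte-like cells, tanycytes being the ependymoglia that line the floor of the ventricle. All 99 markers were highest in the type they name, although they also served to name it. The ending -like is left out from here on. The clusters left without a name held 635 cells. Levels are given as CPM, the UMIs of a gene per 1e+06 UMIs of the cell type, with an exact Poisson 95% interval. These intervals cover counting error only, and with 1 sample no test between groups was made. The median UMIs per cell were 4025 in OPC, 8918 in diffOPC, 6139.5 in MOL, 2665 in astrocytes and 4242 in tanycytes.

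The 17 sterol enzymes together were highest in MOL among the 13 cell types, and tanycytes lay far below all 3 oligodendrocyte stages and below astrocytes. Their summed level was 2250.1 CPM (95% interval 2206 to 2294) in MOL, 1873 CPM (1798 to 1949) in diffOPC, 1776 CPM (1734 to 1818) in astrocytes, 1222 CPM (1162 to 1285) in OPC and 621 CPM (598 to 645) in tanycytes. In barcode numbers 1 to 4 the MOL level was 2251, 2055, 2232 and 2403 CPM, and the astrocyte level was 1634, 1637, 1990 and 1915 CPM. MOL lay above astrocytes within each barcode number, and the lowest MOL value lay above the highest astrocyte value. This lead of the summed level did not hold for every MOL cluster or for the shallower MOL cells, as given below. The diffOPC level was 1531, 1314, 2201 and 2380 CPM, the widest spread among these types, and it lay above astrocytes in 2 of the 4 barcode numbers. The OPC level was 1129, 1157, 1298 and 1391 CPM, and the tanycyte level was 568, 571, 678 and 695 CPM. OPC stood below astrocytes and above tanycytes within each barcode number. As ratios, MOL was 3.62-fold (3.47 to 3.78) above tanycytes and 1.27-fold (1.23 to 1.31) above astrocytes, and astrocytes were 2.86-fold (2.74 to 2.99) above tanycytes. Hmgcs1 made up 24.3% of the sterol enzyme UMIs in MOL and 7.96% in astrocytes, and so carried much of the MOL lead over astrocytes. With 10 CPM added to each level, the median single difference of the 17 enzymes between MOL and astrocytes was 0.02 log2 units. Over all genes tested it was -0.18. The diffOPC level was 3.02-fold (2.85 to 3.19) that of tanycytes and 1.05-fold (1.01 to 1.10) that of astrocytes, so diffOPC and astrocytes did not differ beyond the spread of the barcode numbers. Among the diffOPC, 8 of 139 cells held 33.8% of the sterol enzyme UMIs, and the 129 cells that were diffOPC under either choice of clustering genes had 1385 CPM. OPC were at 1.97-fold (1.85 to 2.10) of tanycytes and 0.689-fold (0.651 to 0.728) of astrocytes.

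**Figure D1:**
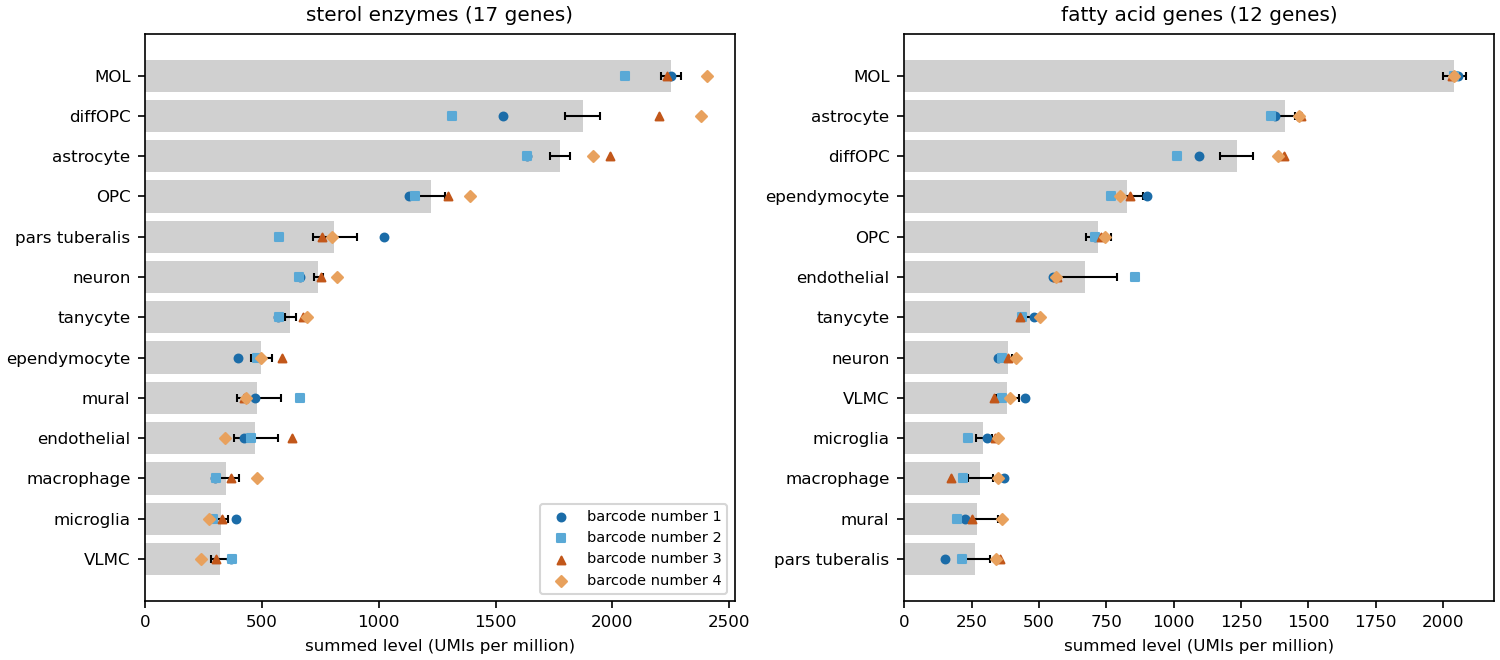
Summed level in CPM of the 17 sterol enzymes (left) and the 12 fatty acid genes (right) in 13 cell types. Bars are the pooled level, lines its exact Poisson 95% interval and points the 4 barcode numbers. MOL lead both panels, at 2250.1 and 2041 CPM, and tanycytes stand at 621 and 465 CPM.

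The summed levels of the 2 parts of the sterol pathway were ordered differently among the glia. The mevalonate steps summed to 1097 CPM in MOL, 885 CPM in diffOPC, 556 CPM in OPC, 539 CPM in astrocytes and 260.0 CPM in tanycytes, so MOL were 2.03-fold (1.93 to 2.14) above astrocytes, higher in 4 of 4 barcode numbers. The steps from squalene to sterol summed to 1236 CPM in astrocytes, 1153 CPM in MOL, 987 CPM in diffOPC, 667 CPM in OPC and 361 CPM in tanycytes. For these later steps MOL lay at 0.933-fold (0.897 to 0.970) of astrocytes, lower in 4 of 4 barcode numbers. Msmo1 alone, described below, gave 581 CPM of the astrocyte sum and 397 CPM of the MOL sum. That gap is wider than the gap between the sums, so the astrocyte lead rests on this gene.

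Among the mevalonate steps, Hmgcs1 (chr13:119690379-119708260, plus strand, GRCm38) encodes the cytosolic HMG-CoA synthase, an early enzyme of the pathway. Its level in barcode numbers 1 to 4 was 546, 472, 519.9 and 627 CPM in MOL, 245, 153, 471 and 499 CPM in diffOPC and 156, 175, 189 and 193 CPM in OPC. In astrocytes it was 129, 100.004, 180.0 and 170.3 CPM, and in tanycytes 82.5, 68.0, 106 and 104 CPM. Every MOL value lay above every value of OPC, astrocytes and tanycytes, and diffOPC overlapped MOL, OPC and astrocytes. In the 129 cells that were diffOPC under either choice of clustering genes Hmgcs1 was at 219 CPM. It was at 1448 CPM in the 8 diffOPC grouped with MOL under the other choice. The pooled MOL level of 547 CPM was 3.87-fold (3.53 to 4.25) that of astrocytes and 6.17-fold (5.55 to 6.88) that of tanycytes.

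Fdps, which makes farnesyl pyrophosphate, and Idi1, which turns isopentenyl pyrophosphate into its isomer, were likewise highest in MOL, and lowest in tanycytes among these 5 types. Fdps was at 249 CPM in MOL, 222 CPM in diffOPC, 153 CPM in OPC, 137 CPM in astrocytes and 53.5 CPM in tanycytes. Idi1 was at 149.6 CPM in MOL, 128 CPM in diffOPC, 103 CPM in astrocytes, 80.3 CPM in OPC and 22.0 CPM in tanycytes. Between MOL and diffOPC the intervals of the ratio reached 1 for both genes, from 0.984 to 1.28 for Fdps and from 0.984 to 1.40 for Idi1. Mvd, the mevalonate diphosphate decarboxylase, had another order. It was at 68.7 CPM in diffOPC, 52.5 CPM in astrocytes, 34.2 CPM in OPC, 27.0 CPM in MOL and 9.33 CPM in tanycytes. In barcode numbers 1 to 4 it was 68.4, 48.4, 79.5 and 73.1 CPM in diffOPC and 26.5, 20.6, 24.4 and 34.5 CPM in MOL, so these stages did not overlap. Of the kinases, Mvk lay between 16.4 CPM in tanycytes and 37.5 CPM in diffOPC, and Pmvk between 70.0 CPM in tanycytes and 97.8 CPM in MOL.

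Of the steps from squalene to sterol, Msmo1 (chr8:64718139-64733792, minus strand), the C4-methyl sterol oxidase, was highest in astrocytes. It was at 567, 566, 624 and 576 CPM in astrocytes, 379, 376, 422 and 404 CPM in MOL, 258, 206, 327 and 352 CPM in diffOPC, 167, 219, 185 and 193 CPM in OPC and 92.7, 86.4, 116 and 133 CPM in tanycytes. The astrocyte values lay above all others and the tanycyte values below all others. MOL were at 0.683-fold (0.642 to 0.727) of astrocytes and 3.77-fold (3.41 to 4.19) of tanycytes.

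Sqle, the squalene epoxidase that starts the oxygen-dependent steps, was spread more evenly. Its values in barcode numbers 1 to 4 were 166, 149, 241 and 176 CPM in diffOPC, 165, 129, 185 and 155 CPM in OPC, 137, 118, 142 and 158 CPM in astrocytes and 135, 117, 118 and 149 CPM in MOL. In tanycytes they were 83.2, 82.9, 84.9 and 81.5 CPM. Tanycytes stood apart below the other 4 types, whose values overlapped. The MOL to astrocyte ratio was 0.951 (0.845 to 1.07).

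Ebp (chrX:8185329-8193512, minus strand), the sterol isomerase that shifts the ring double bond, was at 122, 85.9, 102 and 88.4 CPM in MOL. The other values were 42.1, 32.2, 48.3 and 56.5 CPM in diffOPC, 48.3, 43.0, 37.8 and 48.8 CPM in astrocytes, 34.0, 37.5, 40.3 and 44.7 CPM in tanycytes and 29.8, 24.6, 34.4 and 11.3 CPM in OPC. MOL lay above the other 4 types in every barcode number, at 2.24-fold (1.87 to 2.68) of astrocytes and 2.59-fold (2.17 to 3.11) of tanycytes. Microglia, the macrophages of the brain, had a pooled Ebp level of 94.1 CPM (78.5 to 112), next to the 100.3 CPM (91.2 to 110) of MOL.

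Hsd17b7 (chr1:169949535-169969241, minus strand), a 3-ketosteroid reductase of C4 demethylation, was at 57.9, 24.2, 39.8 and 66.5 CPM in diffOPC. It was at 24, 26.3, 21.8 and 20.9 CPM in MOL, 20.6, 15.4, 30.1 and 18.9 CPM in OPC, 12.8, 20.6, 15.1 and 14.5 CPM in astrocytes and 4.34, 5.23, 8.49 and 8.74 CPM in tanycytes. DiffOPC lay above astrocytes and tanycytes in each barcode number, and overlapped MOL and OPC. The pooled diffOPC level was 3.06-fold (2.12 to 4.43) that of astrocytes.

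Other members of this branch fell into 2 kinds by the type that held most. Cyp51, the lanosterol demethylase, was at 134 CPM in MOL and 120.2 CPM in diffOPC, against 77.7 CPM in astrocytes, 55.6 CPM in OPC and 19.1 CPM in tanycytes. Sc5d, the sterol C5-desaturase, was at 154 CPM in MOL, 89.8 CPM in diffOPC, 89.7 CPM in astrocytes, 50.9 CPM in OPC and 30.4 CPM in tanycytes. Tm7sf2, a C14 sterol reductase, was instead at 37.2 CPM in astrocytes and between 5.36 and 11.9 CPM in the other 4 types. Nsdhl, a dehydrogenase of C4 demethylation, was at 50.7 CPM in astrocytes and between 14.2 and 28.6 CPM in the others. Fdft1, the squalene synthase, did not set MOL (128 CPM, 117 to 138) apart from astrocytes (128 CPM, 117 to 139). Dhcr7, the 7-dehydrocholesterol reductase, was at 64.2 CPM in astrocytes, 58.0 CPM in OPC, 53.9 CPM in diffOPC, 44.0 CPM in MOL and 10.9 CPM in tanycytes. Lss, the cyclase that forms lanosterol, was captured least, with 190 UMIs in all cells and between 3.33 and 13.3 CPM in these types.

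**Figure D2:**
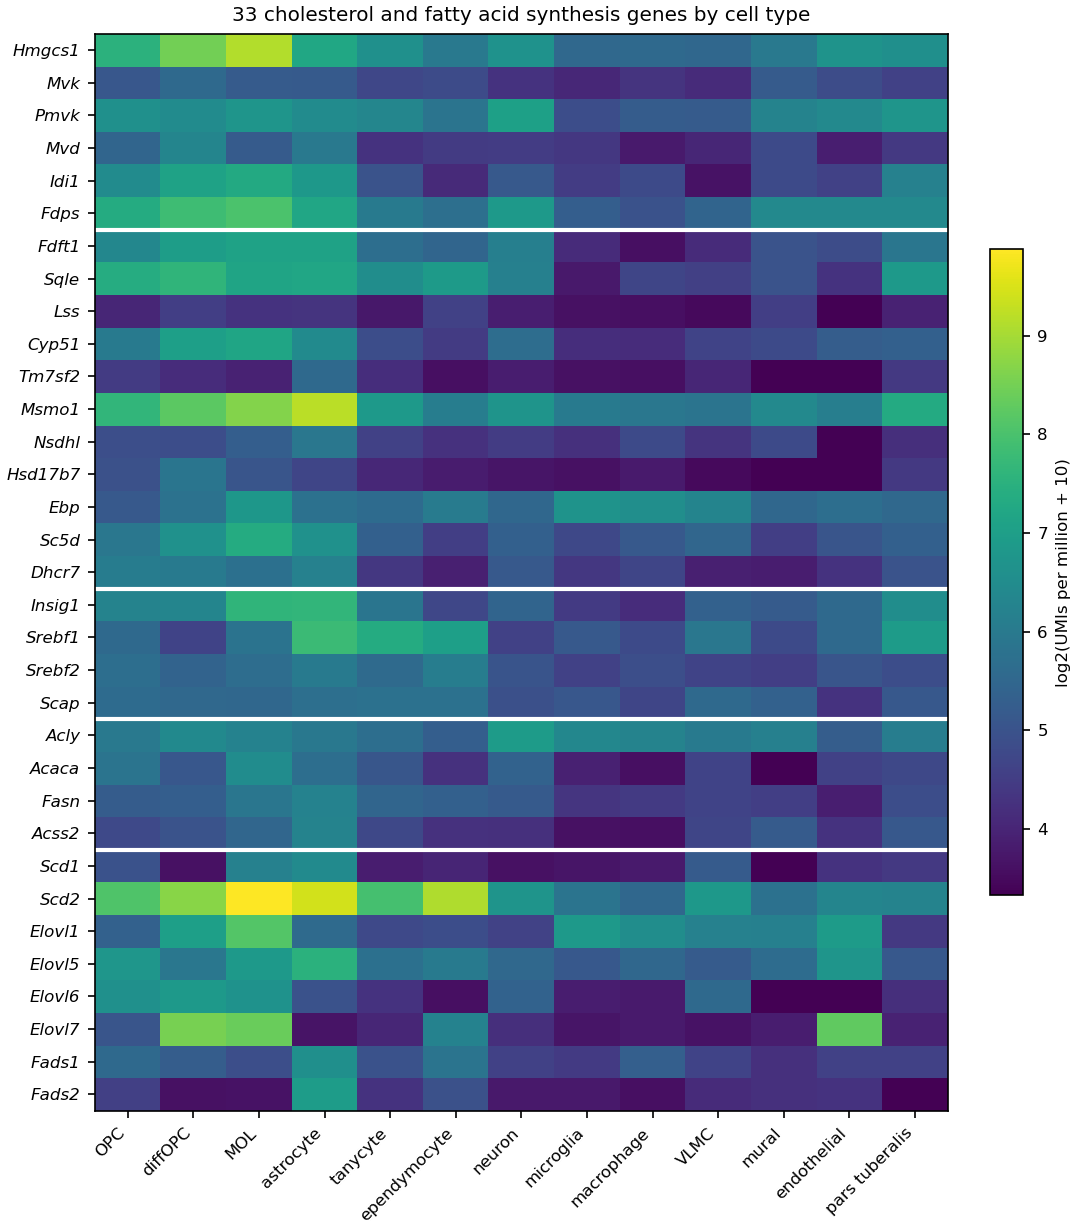
Level of the 33 members, as log2 of CPM plus 10, in 13 cell types. White lines separate mevalonate steps, squalene to sterol steps, regulators, fatty acid synthesis, and elongation with desaturation. The MOL and diffOPC columns are bright for Hmgcs1 and Elovl7 (547 and 324 CPM in MOL), and the astrocyte column for Msmo1, Srebf1 and Fads2 (581, 210.5 and 113 CPM).

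The 4 regulators summed to 498 CPM in astrocytes, 307 CPM in MOL, 284 CPM in tanycytes, 184 CPM in OPC and 154 CPM in diffOPC, so the order differed from that of the enzymes. Srebf1 (chr11:60199089-60222581, minus strand) was at 233, 241, 167 and 186 CPM in astrocytes and 186, 152, 146 and 115 CPM in tanycytes. It was at 50.5, 57.3, 37.8 and 41.8 CPM in MOL, 48.2, 43.1, 25.8 and 22.7 CPM in OPC and 18.4, 8.06, 17 and 13.3 CPM in diffOPC. All values of the lineage lay below all values of astrocytes and tanycytes. MOL were at 0.219-fold (0.187 to 0.255) and diffOPC at 0.0705-fold (0.0422 to 0.111) of astrocytes.

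Insig1, the sterol-sensing retention protein and itself a target of SREBP, was at 199.6, 178, 179 and 201 CPM in astrocytes and 204, 198, 213 and 132 CPM in MOL. In OPC it was 75.7, 52.3, 73.1 and 60.5 CPM, in diffOPC 68.4, 44.3, 65.3 and 96.4 CPM and in tanycytes 49.9, 50.6, 50.9 and 41.7 CPM. MOL and astrocytes overlapped, with a ratio of 0.975 (0.882 to 1.08), and MOL were 2.67-fold (2.14 to 3.36) above diffOPC. Srebf2, the sterol transcription factor, was at 55.3 CPM in astrocytes and between 32.8 and 41.3 CPM in the other 4 types. Scap lay between 35.3 and 44.4 CPM in all 5. 

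The 12 fatty acid genes summed to 2041 CPM (1999.8 to 2084) in MOL, 1413 CPM (1376 to 1451) in astrocytes, 1233 CPM (1173 to 1296) in diffOPC, 719 CPM (673 to 768) in OPC and 465 CPM (445 to 485) in tanycytes. In MOL the 4 barcode numbers gave 2054, 2039, 2033 and 2040 CPM, a spread of 1.01-fold. Astrocytes gave 1376, 1360, 1474 and 1465 CPM, diffOPC 1095, 1012, 1409 and 1386 CPM, OPC 706, 708, 731 and 745 CPM and tanycytes 484, 435, 431 and 505 CPM. These groups did not overlap except for diffOPC and astrocytes. MOL were 4.39-fold (4.19 to 4.61) above tanycytes and 1.44-fold (1.40 to 1.49) above astrocytes.

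The genes that make palmitate took a small part of this sum. Acly (ATP citrate lyase), Acaca (acetyl-CoA carboxylase), Fasn (fatty acid synthase) and Acss2 (acetyl-CoA synthetase) together were at 231 CPM in MOL, 224 CPM in astrocytes, 151 CPM in diffOPC, 145 CPM in OPC and 116 CPM in tanycytes. The MOL to astrocyte ratio of this sum was 1.03 (0.941 to 1.13). Within it, Acaca was higher in MOL (80.9 CPM) than in OPC (47.7 CPM), astrocytes (41.5 CPM), diffOPC (24.2 CPM) or tanycytes (23.8 CPM). Acss2 was at 66.0 CPM in astrocytes, 35.1 CPM in MOL and between 16.9 and 21.9 CPM in the others. Fasn was at 65.5 CPM in astrocytes and 49.6 CPM in MOL, and lay between 27.8 and 34.4 CPM in the other 3. Acly was at 76.5 CPM (62.1 to 93.2) in diffOPC and 65.7 CPM (58.4 to 73.6) in MOL, and between 41.3 and 52.5 CPM in the rest.

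Elongation and desaturation genes carried the difference between the types, at 1810.3 CPM in MOL, 1189 CPM in astrocytes, 1082 CPM in diffOPC, 574 CPM in OPC and 349 CPM in tanycytes. Scd2 (chr19:44293674-44306864, plus strand), a stearoyl-CoA desaturase, was at 982, 966, 933 and 865 CPM in MOL and 653, 636, 729.9 and 704 CPM in astrocytes. It was at 379, 310.3, 469 and 462 CPM in diffOPC, 245, 259, 271 and 283 CPM in OPC and 269, 218, 208 and 241 CPM in tanycytes. The ranges of MOL, astrocytes and diffOPC did not overlap, and those of OPC and tanycytes did. Scd1, its paralog next to it on chromosome 19, was at 78.5 CPM in astrocytes, 64.3 CPM in MOL, 21.5 CPM in OPC, 4.44 CPM in tanycytes and 2.34 CPM in diffOPC. The diffOPC value rests on 3 UMIs, and its ratio to astrocytes was 0.0298 (0.00612 to 0.0880). Whether reads were shared between the 2 paralogs was not tested.

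Elovl7 (chr13:108214404-108285683, plus strand), an elongase of saturated and monounsaturated long chains, was near its floor in astrocytes and tanycytes and high in the later stages. It was at 318, 335, 443 and 349 CPM in diffOPC and 304, 341, 304 and 351 CPM in MOL, against 13.8, 27.7, 30.1 and 26.5 CPM in OPC. In astrocytes it was 1.82, 4.67, 1.26 and 3.12 CPM and in tanycytes 2.90, 6.98, 5.31 and 10.7 CPM. DiffOPC were 129-fold (71.7 to 261) and MOL 116-fold (64.5 to 232) above astrocytes. The step from OPC to diffOPC was 15.7-fold (10.8 to 23.8), and diffOPC and MOL overlapped.

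Elovl1 (chr4:118428093-118432953, plus strand), which elongates very long saturated chains of sphingolipids, was at 247, 224, 281 and 311 CPM in MOL and 111, 64.5, 142 and 156 CPM in diffOPC. OPC had 34.4, 27.7, 30.1 and 30.2 CPM, astrocytes 25.5, 53.3, 46.6 and 29.1 CPM and tanycytes 17.4, 16.6, 14.9 and 19.4 CPM. Unlike Elovl7, it kept apart diffOPC and MOL, at 2.23-fold (1.88 to 2.65), while OPC overlapped astrocytes.

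Elovl6 (chr3:129532355-129638495, plus strand), which elongates palmitate to stearate, was high at all 3 stages. It was at 105, 92.7, 90.9 and 129.6 CPM in diffOPC, 87.3, 90.5, 99.1 and 91.6 CPM in MOL and 78.0, 92.4, 129 and 60.5 CPM in OPC. Astrocytes had 21.0, 17.8, 28.9 and 19.7 CPM and tanycytes 10.9, 6.98, 7.43 and 12.6 CPM. The 3 stages overlapped each other and none overlapped astrocytes or tanycytes.

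Elovl5, an elongase of polyunsaturated chains, was highest in astrocytes, at 186, 162, 149.8 and 191 CPM in astrocytes and 126, 93.9, 96.6 and 99.6 CPM in MOL. It was at 112, 98.5, 81.7 and 90.7 CPM in OPC, 55.3, 56.4, 45.4 and 46.5 CPM in diffOPC and 37.6, 41.0, 46.7 and 51.4 CPM in tanycytes. Fads1 and Fads2, the desaturases of the polyunsaturated series and neighbours on chromosome 19, were also highest in astrocytes. Fads2 was at 113 CPM (103 to 124) in astrocytes, 13.5 CPM in OPC, 9.55 CPM in tanycytes, 2.46 CPM in MOL and 2.34 CPM in diffOPC, the last from 3 UMIs. Fads1 was at 85.6 CPM in astrocytes and between 19.7 and 37.4 CPM in the other 4 types.

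**Figure D3:**
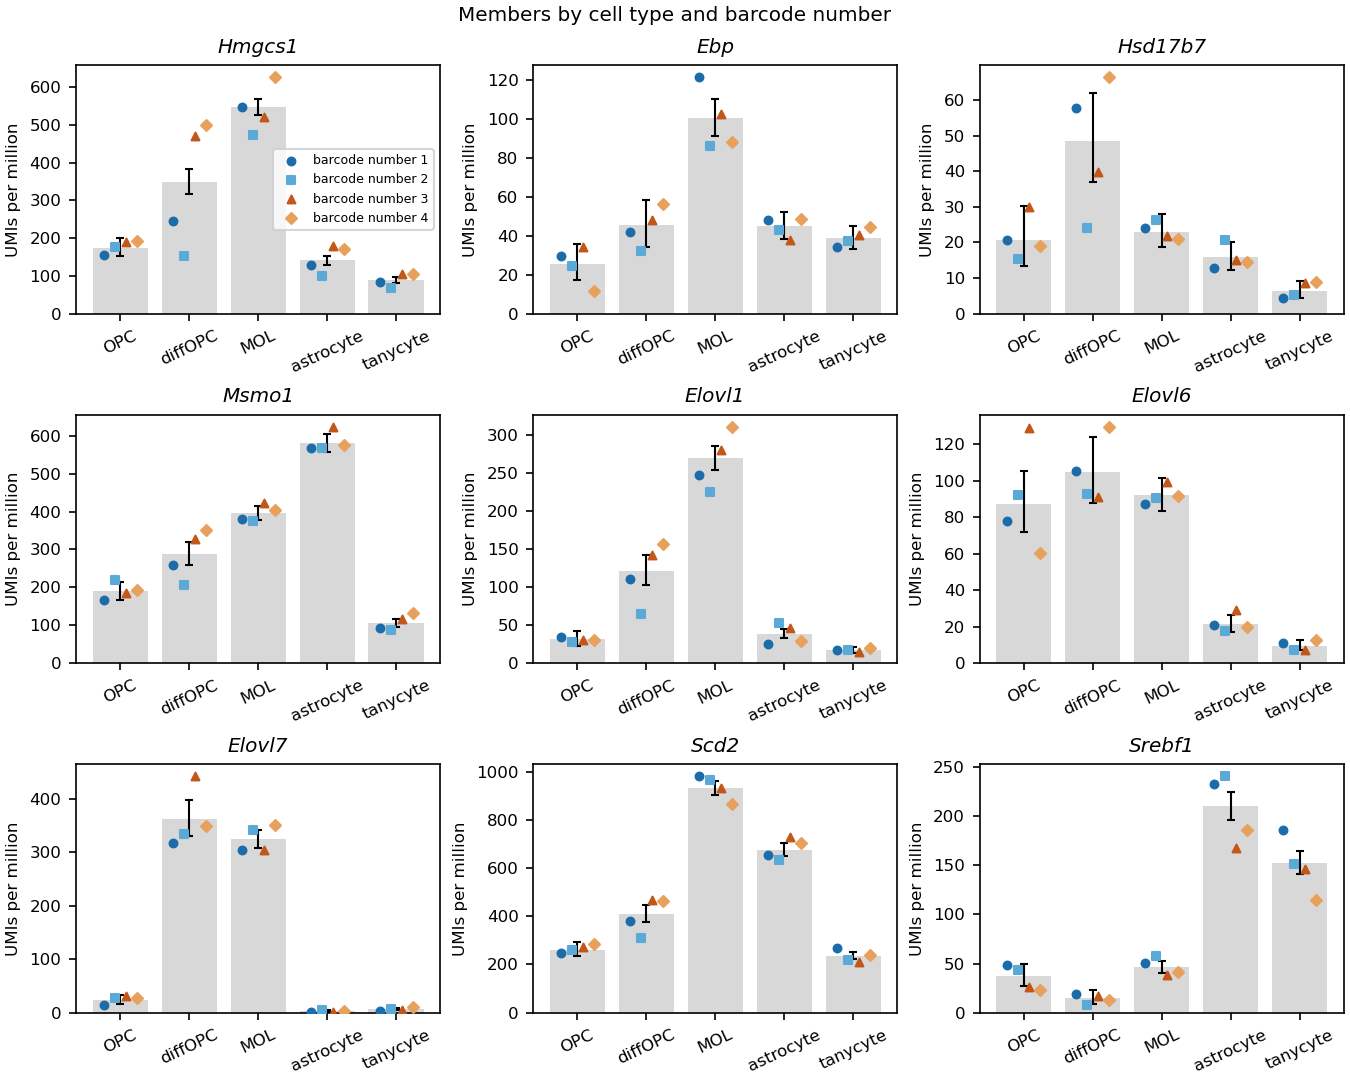
CPM of 9 members in 5 cell types. Bars are pooled levels with exact Poisson 95% intervals and points are the 4 barcode numbers. Elovl7 and Elovl6 leave a gap between the lineage stages that hold them and astrocytes or tanycytes, Srebf1 does so in the other direction, and Msmo1 is highest in astrocytes at 581 CPM.

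Members were then counted by a rule of size. A gene was called when it lay at least 1 log2 unit higher or lower in a stage than in astrocytes and also than in tanycytes, with 10 CPM added to each level and at least 50 UMIs over the types compared. In MOL, 5 of 33 members (15.2%) were higher than in both types (Hmgcs1, Ebp, Elovl1, Elovl6 and Elovl7), beside 8.13% of all genes tested, and 1 (Srebf1) was lower, beside 9.64%. In diffOPC, 5 of 29 members tested (17.2%) were higher (Hmgcs1, Hsd17b7, Elovl1, Elovl6 and Elovl7), beside 9.35%, and Srebf1 was lower, beside 7.58%. In OPC, Elovl6 was higher and Srebf1 lower among 30 members tested (3.33% each), beside 9.21% and 3.66%, so OPC held no larger share of called members than of all genes. Each call had the same direction in 4 of 4 barcode numbers. The diffOPC calls depended on the cells included. With the left-out genes restored to the clustering 2 members (Elovl6 and Elovl7) were higher. With each cell thinned to 1000 UMIs, 13 members still reached the UMI minimum and 0 of them were higher. Members under that minimum could not be called, so this 0 does not show that they were no longer higher. Srebf1 was lower in both settings. The share of all genes called was not computed in either. Ebp in MOL lay just inside the limit, at 1.01 log2 units over astrocytes, and Acaca just outside, at 0.82 over the nearer reference. In diffOPC the nearest members were Hsd17b7 inside, at 1.18, and Fdps outside, at 0.66.

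**Figure D4:**
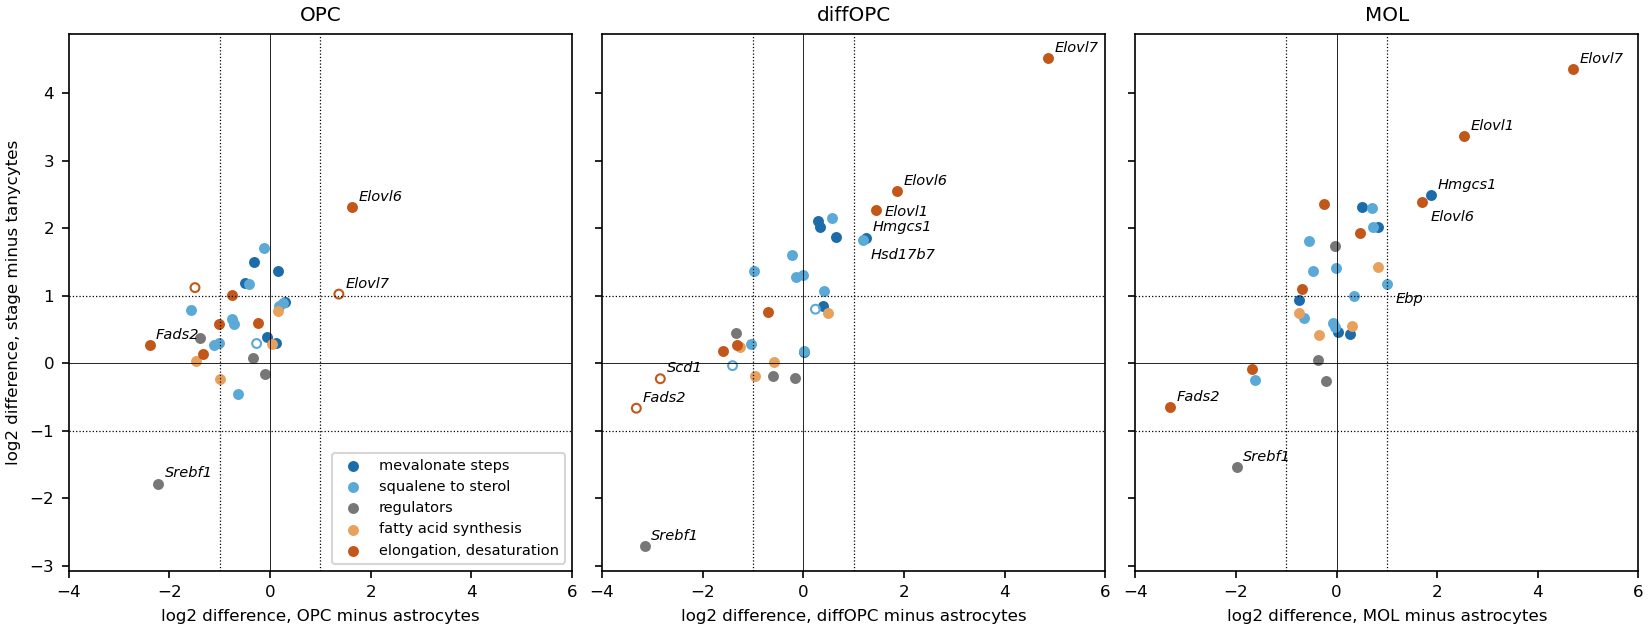
Log2 difference (CPM plus 10) of each member between a stage and astrocytes (horizontal) and tanycytes (vertical). Dotted lines mark 1 log2 unit, and open points had under 50 UMIs in a comparison. Most points lie above 0 on the vertical axis and on both sides of 0 on the horizontal axis, with Elovl7 at the upper right at 4.86 and 4.52 in diffOPC.

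Astrocytes and tanycytes gave different counts. Against tanycytes alone, 18 of 33 members (54.5%) were higher in MOL, beside 9.78% of all genes, 14 of 29 (48.3%) in diffOPC, beside 11.6%, and 8 of 31 (25.8%) in OPC, beside 13.2%. Astrocytes were also above tanycytes for 17 of 32 members (53.1%), beside 7.96%, and below for 0, beside 11.2%. Srebf1 was the 1 member lower than in tanycytes at each stage, beside 21.8% of genes in MOL, 17% in diffOPC and 10.6% in OPC. Against astrocytes alone, 5 of 33 members (15.2%) were higher in MOL, beside 10.2%, and 4 (12.1%) were lower (Tm7sf2, Srebf1, Fads1 and Fads2), beside 16.7%. In diffOPC 5 of 33 were higher, beside 15.3%, and 9 (27.3%) lower, beside 14.6%. In OPC 1 of 31 (3.23%) was higher, beside 17%, and 10 (32.3%) lower, beside 8.77%. These counts share their reference cells.

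Sums and medians over members did not always have the same sign. Against astrocytes and tanycytes taken as 1 group, the log2 ratio of the summed sterol enzymes was 0.08 in OPC, 0.69 in diffOPC and 0.96 in MOL. In cells thinned to 1000 UMIs it was -0.24, which turned the direction in OPC, 0.066 and 0.60. The median of the 17 single differences was 0.17, 0.55 and 0.35. For the fatty acid genes the sums gave -0.33, 0.44 and 1.17, the thinned cells -0.55, 0.032 and 0.94, and the medians of the 12 genes gave -0.22, -0.45 and 0.52. In diffOPC the fatty acid sum was thus above and the median below the reference, with Elovl7, Elovl1 and Elovl6 high and Scd1, Fads1 and Fads2 low. The median over all genes tested was 0.26 in OPC, 0.06 in diffOPC and -0.25 in MOL.

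From OPC to diffOPC, 2 of 29 members (Elovl1 and Elovl7) were at least 1 log2 unit higher, beside 6.57% of genes, and 0 were lower, beside 12.5%. From diffOPC to MOL, 6 of 31 were higher (Insig1, Srebf1, Acaca, Scd1, Scd2 and Elovl1), beside 7.61%, and Mvd was lower, beside 13.7%. From OPC to MOL, 10 of 31 were higher (Hmgcs1, Cyp51, Msmo1, Ebp, Sc5d, Insig1, Scd1, Scd2, Elovl1 and Elovl7), beside 7.86%, and 0 were lower, beside 23.3%. The summed sterol enzymes were 1.53-fold (1.44 to 1.63) higher in diffOPC than in OPC and 1.20-fold (1.15 to 1.26) higher in MOL than in diffOPC. The step to MOL was of 0.55 and 0.64 log2 units in barcode numbers 1 and 2 and of 0.02 and 0.01 in numbers 3 and 4. Of the diffOPC, 8 cells joined MOL when the members and pathway genes left out of the clustering were restored to it, with 2, 1, 3 and 2 of them in numbers 1 to 4, at 4252, 2507, 6803 and 7482 CPM.

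Within diffOPC the sterol enzymes were carried by few cells. The median cell had 1148 CPM of them, close to the 1115 CPM of the median OPC and below the 1741 CPM of the median MOL and the 1576 CPM of the median astrocyte. The 14 diffOPC with the most sterol enzyme UMIs, 10% of the cells, held 45.4% of the UMIs of these genes in diffOPC, and the same share of cells held 35.6% in MOL, 25.2% in tanycytes, 24.3% in astrocytes and 23.9% in OPC. In cells thinned to 1000 UMIs, the variance of the sterol enzyme count was 1.84 times its mean in MOL, 1.79 in diffOPC, 1.36 in OPC, 1.30 in astrocytes and 1.11 in tanycytes, where counting error alone gives a value of 1. For the fatty acid genes these values lay between 0.964 and 1.32. UMIs of the deepest 10% of cells made up 17.8% of all UMIs in diffOPC and 19.2% in MOL.

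DiffOPC were also split by Bmp4, a marker of premyelinating cells. The cells without it had the higher summed level and also the lowest single cell, at 162 CPM, and cells with it reached 6134 CPM and held 63.6% of the sterol enzyme UMIs. The 22 diffOPC without a Bmp4 UMI had 3503 CPM of sterol enzymes (3275 to 3744), and the 117 with Bmp4 had 1479 CPM (1406 to 1555). In barcode numbers 1 to 4 the levels were 1972, 1925, 3634 and 5782 CPM without Bmp4 and 1451, 1228, 1584 and 1631 CPM with it, so cells without Bmp4 were higher in each. Hmgcs1 was at 835 CPM without Bmp4 and 232 CPM with it, Elovl7 at 750 CPM and 269 CPM, and Elovl1 at 285 CPM and 81.4 CPM, while Scd2 was at 453 CPM and 399 CPM. The cells without Bmp4 were deeper, with a median of 12053.5 UMIs against 8899. This split was chosen after the values were seen, and the part of depth in it was not tested. The 8 cells that joined MOL in the other clustering held 10.6% of all diffOPC UMIs. The 129 cells that stayed diffOPC had 1385 CPM (1317 to 1455), in barcode numbers 1 to 4 at 1249, 1249, 1483 and 1571 CPM, which lay below astrocytes and MOL in each.

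Clustering the lineage alone, again without the members, divided the stages further. A diffOPC cluster of 67 cells had 1247 CPM of sterol enzymes and 130 CPM of Elovl7, and the other, of 73 cells, had 2256 CPM and 506 CPM. MOL made 5 clusters. The cluster of 77 cells led by Klk6, a protease of mature oligodendrocytes, had 3856 CPM of sterol enzymes, in barcode numbers 1 to 4 at 4695, 2827, 3283 and 4326 CPM, with a median of 7573 UMIs per cell. The other 4 MOL clusters had 2529.6, 1880, 1707 and 1635 CPM with medians of 9209.5, 5665, 5485 and 5811.5 UMIs, and the highest of their values in a barcode number was 2684 CPM. The clusters at 1707 and 1635 CPM lay below the 1776 CPM of astrocytes. In the Klk6 cluster Hmgcs1 was at 1092 CPM, Sqle at 332 CPM, Fdps at 412 CPM, Msmo1 at 591 CPM and Ebp at 166 CPM. In the other MOL clusters these genes lay between 324 and 707 CPM, 69.6 and 138 CPM, 181 and 294 CPM, 334 and 409 CPM, and 72.6 and 106 CPM. Fatty acid genes varied less, from 1791 to 2483 CPM over the 5 clusters. Insig1 was highest in a different MOL cluster, of 152 cells, in which it was at 371, 459, 493 and 366 CPM in the 4 barcode numbers, against 119 to 153 CPM in the other 4 clusters. Sterol enzymes were at 1635 CPM in that cluster, the lowest of the 5. Acta2, a marker of mural cells, was among its leading genes, and the 7 mural markers summed to 252 CPM there, against 5.25 to 15.8 CPM in the other MOL clusters and 24758 CPM in mural cells, with Kcnj8 and Abcc9 at 0. Acta2 was found in 3.29% of its cells and in 1.72% to 6.49% of the cells of the other MOL clusters. In the cluster of 152 cells the mural sum was 0, 532, 503 and 14.1 CPM in barcode numbers 1 to 4, beside 371, 459, 493 and 366 CPM of Insig1. The part of mural RNA in the Insig1 level was not tested.

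**Figure D5:**
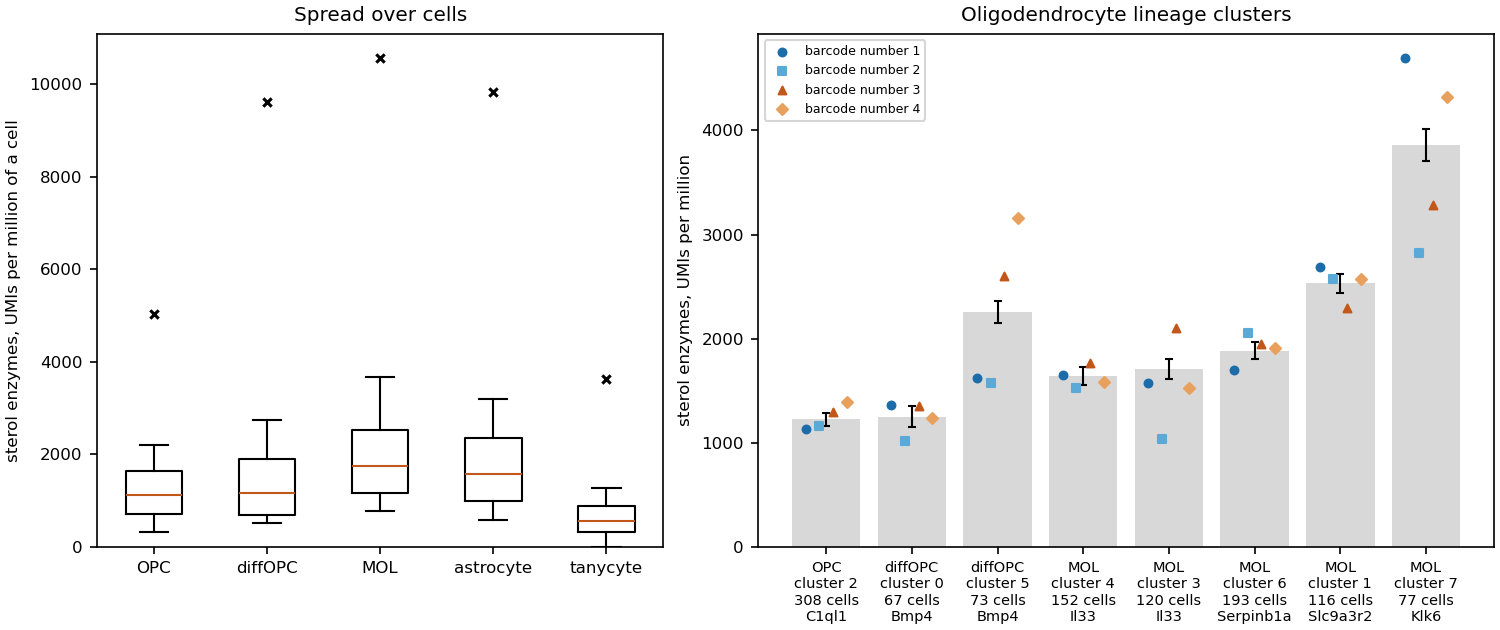
Left, sterol enzyme CPM of single cells in 5 types, with boxes for quartiles, whiskers for the 10th and 90th percentiles and crosses for the highest cell. Right, pooled level of the same genes in the clusters of the oligodendrocyte lineage with 95% intervals and the 4 barcode numbers, each cluster labelled with its number of cells and leading gene. The Klk6 cluster stands at 3856 CPM.

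Outside the glia compared above, some single members were also high in other cell types. Endothelial cells had 302 CPM of Elovl7 (233 to 385), beside 363 CPM in diffOPC and 324 CPM in MOL, and its 4 barcode values of 277, 389.9, 284 and 156 CPM overlapped those of both. Elovl1 was at 112 CPM in endothelial cells and 107 CPM in microglia. Ependymocytes, the ciliated lining of the ventricle, were at 534 CPM of Scd2 (489.6 to 582), between diffOPC (409.8 CPM) and astrocytes (676 CPM), and at 64.5 CPM of Elovl7. Neurons were at 122 CPM of Pmvk and 112 CPM of Acly, the highest of the 13 types for both genes, although their 742 CPM of sterol enzymes lay well below OPC. Microglia, macrophages and vascular leptomeningeal cells (VLMC) were lowest in sterol enzymes, at 325, 346 and 321 CPM.

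Further genes of these pathways were counted by the same rule against astrocytes and tanycytes. Of 15 genes of sterol handling, 11 were tested in MOL, 10 in OPC and 9 in diffOPC. Abcg1 (a sterol exporter) and Npc1 (lysosomal sterol export) were higher in MOL and in OPC, beside 8.13% and 9.21% of all genes. Abca1, another exporter, was lower in MOL, and Soat1, which esterifies cholesterol, in MOL and diffOPC, beside 9.64% and 7.58%. Soat1 was at 154 CPM in astrocytes, 80.7 CPM in tanycytes and 6.70 CPM in MOL, and Npc1 at 121 CPM in MOL and 9.78 CPM in tanycytes.

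Of 22 further fatty acid genes, 16 were tested in diffOPC and 18 in MOL. In both stages 5 were lower (Thrsp, Elovl2, Hacd2, Acsl6 and Acsbg1), beside 7.58% and 9.64% of all genes. Acsl1 was higher in both, beside 9.35% and 8.13%. Elovl4 was also higher in diffOPC, so that 12.5% of the genes tested there were higher, beside 9.35%. Of the 15 tested in OPC, Elovl4 was higher (6.67%), beside 9.21%, and Thrsp and Hacd2 were lower (13.3%), beside 3.66%. Thrsp, a lipogenic protein, was at 744 CPM in tanycytes, 195 CPM in astrocytes and 8.59 CPM in diffOPC, and so differed from the enzymes in being highest in tanycytes of these 5 types. The acyl-CoA synthetase Acsbg1 was at 870.4 CPM in astrocytes and 17.9 CPM in MOL, Acsl6 at 574 CPM and 7.59 CPM, and the dehydratase Hacd2 at 590.1 CPM and 47.1 CPM. Of 10 genes of myelin sphingolipids, 5 were higher in MOL (Ugt8a, Gal3st1, Fa2h, Cers2 and Degs1), beside 8.13% of all genes, and 4 in OPC (Ugt8a, Gal3st1, Fa2h and Smpd3), beside 9.21%. In diffOPC 4 of the 9 tested were higher (Ugt8a, Gal3st1, Fa2h and Degs1), beside 9.35%, and 0 were lower at any stage. Ugt8a, the galactosyltransferase of cerebroside, was at 926 CPM in MOL, 729.8 CPM in diffOPC, 165 CPM in OPC and 7.13 CPM in astrocytes. Cers2, the ceramide synthase for very long chains such as those made by Elovl1, was at 798 CPM in MOL and 210.0 CPM in diffOPC.

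The genes whose pattern was most like that of the summed sterol enzymes were Kirrel3, Phyhipl, Vta1, Omg and Kif1b, with Pearson r between 0.910 and 0.924 over 13 cell types on the log2 scale, among 11016 genes with at least 200 UMIs. Insig1 was the 1 member among the 10 most alike, at 0.885. For the summed fatty acid genes they were Cmtm5, Llgl1, Arhgef10, 4933431E20Rik and Lmbrd1, with r between 0.890 and 0.946. The points are cell types of the same libraries, so these values are a description.

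Several measures moved with these levels. The 7 myelin protein genes made up 9.78% of all UMIs in MOL and 4.47% in diffOPC, against 0.134% in OPC, 0.162% in astrocytes and 0.0919% in tanycytes. Per 1e+06 UMIs outside those genes the sterol enzymes were at 2494 in MOL, 1960 in diffOPC, 1778 in astrocytes and 622 in tanycytes. Depth within a type moved with the level in the later stages. Cells at or below the median UMIs had 1246 CPM of sterol enzymes in diffOPC and 1641 CPM in MOL, and deeper cells 2205 CPM and 2625 CPM. In astrocytes the shallower and deeper cells were at 1800 and 1759 CPM, in OPC at 1244 and 1207 CPM and in tanycytes at 705 and 569 CPM. The shallower MOL thus lay below the shallower astrocytes, and the deeper MOL above the deeper astrocytes. With each cell thinned to 1000 UMIs, so that every cell weighed the same, sterol enzymes were at 1995 CPM in MOL, 1769 CPM in astrocytes, 1381 CPM in diffOPC, 1120 CPM in OPC and 706 CPM in tanycytes. DiffOPC then lay below astrocytes. The part of depth in these differences was not tested. Of the unnamed clusters, that with Gfap as its leading gene (304 cells) had 1335 CPM of sterol enzymes and that of 290 cells had 960.2 CPM. The tanycyte list scored highest in both, and with these 594 cells added tanycytes were at 813 CPM of sterol enzymes and 564 CPM of fatty acid genes.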

How the data were processed

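UMI counts of 1 matrix (5982 cells, 27998 genes) were used. The authors made these deposited counts with Cell Ranger 2.0 on mm10 (10x 3′ v2 chemistry), without normalization. The 32 sample records are lanes and index parts of 4 libraries, and barcode numbers were not tied to them, so all cells formed 1 sample, no comparison of refed with fasted cells was made and values per barcode number are not replicates. Columns of per-sample values left unused numbered 0. Symbols and positions came from GENCODE vM21 (27645 IDs matched) and promoters from RefSeq GRCm38.p6. No cell was removed for depth. Scrublet called 50 doublets (0.836%), kept except in the alternative, 3 cells with haemoglobin in at least 10% of UMIs were set apart, and 21 barcode sequences occurred under 2 numbers.

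Each cell was brought to the median UMI total, followed by log1p. Clusters (scanpy 1.11.5, scikit-learn 1.9.0, igraph 0.11.9) used the 2000 most variable genes without 92 genes (members and pathway lists), 30 principal components, 15 neighbours and Leiden resolution 1. Of 24 clusters, 21 were named, where the best of 13 marker lists scored at least 0.3 and at least 1.5 times the next, at least 3 markers lay 4 times above the median cluster, and no other list had more markers among the top 10 genes. These thresholds were set after the data were seen. CPM are UMIs per 1e+06 UMIs of a type. Intervals are 95% exact Poisson for levels and exact conditional binomial for ratios (scipy 1.17.1). Calls needed 1 log2 unit with a pseudocount of 10 CPM and 50 UMIs. With 1 sample there was no test. The steps were tested on simulated data.

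Named in full are members called at a stage in all 4 barcode numbers and the 5 highest in astrocytes or tanycytes (12 in all). From wider lists up to 4 genes with the largest differences are named. Members and lists were chosen with earlier results of these data known. Alternatives were the 92 left-out genes restored (2 members were then among the variable genes), Leiden 0.5 and 2, the lineage clustered alone, doublets left out, at most 20% mitochondrial UMIs, cells thinned to 1000 UMIs, each barcode number left out, medians, the sum without Scd2, a pseudocount of 1 CPM and no UMI minimum. Alternatives added after seeing the data were myelin genes left out of the totals and unnamed clusters added to tanycytes. Some items are not reported here.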

Additional observations from a re-analysis of the deposited data

How the results depend on the processing

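Values here are log2 ratios of summed levels against astrocytes and tanycytes together, or counts of members. In cells thinned to 1000 UMIs the sterol ratio was -0.24 in OPC (0.08 before, so the direction turned), 0.066 in diffOPC and 0.60 in MOL, and the fatty acid ratio -0.55, 0.032 and 0.94. Thinning weighs each cell equally, which gives astrocytes more weight in the reference. The stages themselves also moved. Sterol enzymes went from 1873 to 1381 CPM in diffOPC, 2250 to 1995 CPM in MOL and 1222 to 1120 CPM in OPC. The part of each in these shifts was not tested. Thinning left 14, 13 and 22 members tested in OPC, diffOPC and MOL, of which 0, 0 and 4 were higher and 2, 1 and 1 lower. The genes tested in all were then 4165, 3474 and 4543. The share of all genes called was not computed for thinned cells or the other alternatives. Their counts therefore have no background beside them. Members under the UMI minimum could not be called.

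With the left-out members and pathway genes restored to the clustering, which moved 8 diffOPC to MOL and 2 to OPC, the diffOPC ratios were 0.25 for sterol enzymes and 0.26 for fatty acid genes, the MOL sterol ratio was 1.02, and 2 members (Elovl6 and Elovl7) were higher in diffOPC in place of 5. Those 8 cells held 33.8% of the sterol enzyme UMIs of diffOPC. Leiden resolution 0.5 gave fatty acid ratios of 0.55 in diffOPC and 1.28 in MOL. Medians over members gave 0.17, 0.55 and 0.35 for sterol enzymes and -0.22, -0.45 (direction turned) and 0.52 for fatty acid genes. Without Scd2 the fatty acid ratios were -0.024, 0.82 and 1.25. Without the UMI minimum 2 members were higher in OPC, and with a pseudocount of 1 CPM 2 were lower in MOL (Srebf1 and Fads2). With the 7 myelin protein genes left out of the totals MOL ratios were 1.10 and 1.32, and with the unnamed clusters added to tanycytes the MOL fatty acid ratio was 1.23. Where no construction is named, the cause was not tested.

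Leaving out each barcode number gave sterol ratios of 0.07 to 0.10 in OPC, 0.62 to 0.76 in diffOPC and 0.90 to 1.00 in MOL, fatty acid ratios of -0.34 to -0.32, 0.36 to 0.49 and 1.15 to 1.20, and 1 to 1, 5 to 5 and 4 to 5 members higher and 1 to 1 lower at each stage. Of 177 values in all, 143 stayed within the interval of the value first given or within 1.5 times its count. No paired analysis was possible because the cells were not tied to libraries or conditions and no test was made. The comparison of refed with fasted cells was not run for the same reason. Members with few UMIs, such as Lss, Scd1 and Fads2 in diffOPC, are limited by depth.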

Other observations

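Barcode numbers 1 and 2 lay below numbers 3 and 4 in the summed sterol enzymes of OPC (1129 and 1157 against 1298 and 1391 CPM), diffOPC (1531 and 1314 against 2201 and 2380 CPM), astrocytes (1634 and 1637 against 1990 and 1915 CPM), tanycytes (568 and 571 against 678 and 695 CPM), neurons, ependymocytes (399 and 480.2 against 586 and 494 CPM) and macrophages (299 and 303 against 368 and 479 CPM), and not in the other 6 types, MOL (2251 and 2055 against 2232 and 2403 CPM) among them. Srebf1 went the other way in astrocytes (233 and 241 against 167 and 186 CPM) and tanycytes (186 and 152 against 146 and 115 CPM). Of the lineage stages, OPC and MOL did so too in the Srebf1 values given above, and diffOPC did not. This grouping of the barcode numbers was chosen after the values were seen. The median UMIs per cell were 3875.5, 3518, 4057 and 3892 in barcode numbers 1 to 4, and the part of depth was not tested. No barcode number is tied to a condition here, so these are values of 4 parts of 1 sample, with no test.

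Regulators differed between the 2 astrocyte clusters, which held 1046 and 374 cells, at 437 and 667 CPM, while sterol enzymes were at 1784 and 1751 CPM. The 2 tanycyte clusters, of 552 and 489 cells, had 729 and 528 CPM of sterol enzymes and 434 and 492 CPM of fatty acid genes.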
